A study of Mus musculus with 100 samples.

Results

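F KSR2 and F KSR4 are 2 mouse induced pluripotent stem cell (iPSC) lines made from the same batch of female fibroblasts in the same medium, and their RNA was compared gene by gene in 3 libraries each. A gene was compared where its log2 value exceeded 0 in at least 3 of these 6 libraries, which kept 12955 of the 25965 genes in the table of 18 libraries. The values are log2 RPM, in which the reads of a gene are scaled to each library's own total without correction for gene length, so levels are compared between libraries and not between genes. Genes with no reads are set at 0.9 read in the table.

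Both lines came from female mouse embryonic fibroblasts (MEFs) of an F1 cross. The mother was an i4F-BL6 mouse, which carries a polycistronic cassette of Oct4, Sox2, Klf4 and c-Myc under doxycycline control on a C57BL/6J background, and the father was a CAST/EiJ mouse. Doxycycline was given in medium with knockout serum replacement (KSR) and LIF, and each line was expanded without doxycycline from a single picked colony. A line is therefore 1 clone, and its 3 libraries are samples of that clone. All p-values below measure the spread between such samples and not the spread between clones. Reads that cover a SNP between BL6 and CAST were assigned to the maternal (BL6) or paternal (CAST) allele, so each gene also has a maternal share, which is maternal reads over the sum of maternal and paternal reads, in percent. For reference, values are given for female MEFs, for TX 2i ESCs (a female hybrid embryonic stem cell line) and for M KSR3 and M KSR5, which are male iPSC lines made in KSR medium.

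Reprogramming passes through single founder cells, and a change in a founder's chromosomes is inherited by every cell of its clone. Cultured mouse pluripotent cells are known to gain and lose whole chromosomes or arms, and a gene's output often follows the number of its copies. In a hybrid, the gain or loss of a parental chromosome also moves the allelic reads of all its genes together, whereas the targets of a transcription factor are spread over the genome.

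The libraries held 13183036 to 16295794 reads on genes, and 17.9 to 19.05% of them were allelic. Both lines expressed the 10 pluripotent cell markers, with summed levels of 4530 to 6250 RPM against 1.40 to 2.29 RPM in MEFs, and the lowest single value among them was a log2 of 6.96. The 15 fibroblast markers summed to 28.0 to 73.2 RPM in F KSR2 and 38.5 to 91.3 RPM in F KSR4, which is 0.0801 to 0.261% of their sum in MEFs. Between 0 and 3 of these markers had no reads in a library. The F KSR4 libraries were less alike than those of F KSR2: the correlation of log2 values within the line was 0.881 to 0.921, against 0.947 to 0.958 within F KSR2 and 0.899 to 0.951 between the lines. F KSR4 replicate 2 stood farthest from its group, with 2204 of 9486 genes (those exceeding a log2 of 3 in 3 or more of the 6 libraries) more than 1 log2 unit from the mean of its other 2 libraries, against 1486 and 1409 genes for replicates 1 and 3 and 324 to 459 genes for the F KSR2 libraries. The 8 genes that by rule told it apart were lower there and include Myc, one of the reprogramming factors. Myc stood at a log2 level of 1.32 against 5.72 and 5.60 in the other F KSR4 libraries. It was also lowest in replicate 2 of F KSR2, at 4.04 against 7.22 and 6.19. The gene fit, the medians of chromosomes and gene lists and the main counts of non-overlapping genes are also given without F KSR4 replicate 2. Its values were lower over most genes, so that the median log2 difference of all genes tested, F KSR2 minus F KSR4, was 0.15 with it and 0.05 without it.

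A single gene passed an adjusted p of 0.05 by limma. Elmod3, which encodes an ELMO domain protein that stimulates GTP hydrolysis by Arl-family GTPases, fell by 3.91 on the log2 scale in F KSR2 relative to F KSR4 (SE 0.40, n = 3 libraries per line, limma adjusted p = 0.0096). It was the 1 gene called of 12955 tested, or 0.00772%. The same share, 0.00772%, was called without F KSR4 replicate 2, where Elmod3 differed by -4.23 (SE 0.37, adjusted p = 0.0072). At an unadjusted p below 0.05 there were 760 genes with all libraries and 1115 without F KSR4 replicate 2. Its log2 level was 2.22, 2.27 and 1.94 in replicates 1 to 3 of F KSR2 and 6.80, 5.40 and 5.96 in those of F KSR4. All F KSR4 libraries lay above all F KSR2 libraries, and also above the 12 libraries of the other groups, in which Elmod3 ranged from 2.15 to 3.13 with a median of 2.83. The call was lost without F KSR2 replicate 1 (adjusted p = 0.059), F KSR2 replicate 3 (0.059), F KSR4 replicate 1 (0.093) or F KSR4 replicate 3 (0.27), while the difference stayed between -3.96 and -3.54.

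Elmod3 lies on the minus strand of chromosome 6 (GRCm38, chr6:72565922-72598413) and starts head to head with Retsat, which is on the plus strand (chr6:72598475-72608425). Retsat encodes retinol saturase. Its far end is 6 bases from that of Tgoln1 (chr6:72608432-72617000, minus strand), which encodes a protein of the trans-Golgi network. The bases between Elmod3 and Retsat and those before the Tgoln1 start are shown because the allelic reads change from gain to loss at the first and stay lost past the second. They are printed 5′ to 3′ on the named strand from RefSeq sequence of GRCm38.p6, with CG dinucleotides in capitals.
Elmod3 to Retsat, plus strand, chr6:72598414-72598474: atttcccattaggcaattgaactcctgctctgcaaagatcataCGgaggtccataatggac
Before Tgoln1, minus strand, chr6:72617001-72617250: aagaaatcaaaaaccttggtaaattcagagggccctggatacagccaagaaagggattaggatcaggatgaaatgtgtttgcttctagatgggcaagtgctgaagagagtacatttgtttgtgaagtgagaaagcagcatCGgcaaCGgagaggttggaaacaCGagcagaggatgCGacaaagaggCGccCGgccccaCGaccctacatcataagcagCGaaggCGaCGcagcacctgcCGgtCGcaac

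The first stretch is 61 bases long and holds 1 CG, and the second is 250 bases long and holds 12. In the 250 bases before their RefSeq starts, Elmod3 held 11, Retsat 13 and Tgoln1 12 CG dinucleotides. The median over 32851 RefSeq promoters was 6, and 35.6%, 31.5% and 33.5% of promoters held at least as many as these genes. CG content is a description of the letters alone. All 3 genes were found in the promoter table.

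In F KSR4 the reads of Elmod3 came almost entirely from the maternal allele. Maternal and paternal reads were 545 and 13 in replicate 1, 234 and 14 in replicate 2, and 286 and 9 in replicate 3. In F KSR2 they were 20 and 0, 24 and 0, and 14 and 1. The other 12 libraries together held 232 maternal and 179 paternal reads, a maternal share of 56.5%. Scaled to RPM on genes, the maternal allele gave 15.7 to 33.7 in F KSR4 and 0.434 to 1.69 in the other groups outside the female iPSCs, without overlap. The paternal allele gave 0.683 to 0.939 RPM in F KSR4, within the range of those groups.

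The 4 genes to the right of Elmod3 showed the opposite allelic pattern in F KSR4, and they were chosen after their values were seen. For Retsat, maternal and paternal reads were 0 and 91, 0 and 127, and 8 and 105 in F KSR4 replicates 1 to 3. For Tgoln1 they were 3 and 169, 7 and 149, and 48 and 57. The 2 genes beyond are Tcf7l1, a transcriptional repressor that acts against Wnt and pluripotency targets (chr6:72626378-72789254), and Kcmf1, a ubiquitin ligase (chr6:72841114-72899979). Tcf7l1 had 2 and 68, 2 and 83, and 122 and 218 maternal and paternal reads, and Kcmf1 had 1 and 55, 0 and 32, and 14 and 43. Summed over the 4 genes the maternal share was 1.54% and 2.25% in F KSR4 replicates 1 and 2 and 31.2% in replicate 3. It was 40.8 to 54.9% in the 12 libraries of the other groups. F KSR4 replicate 3 thus kept more maternal reads than its sister libraries. The nearest genes on either side with enough allelic reads did not share the pattern: in the F KSR4 libraries Capg had 132 and 91, 55 and 81, and 127 and 129 maternal and paternal reads, and Tmsb10 had 31 and 31, 54 and 63, and 32 and 33.

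The total levels of these neighbours did not pass the threshold. Retsat stood at a log2 level of 3.38, 3.12 and 3.79 in F KSR2 and 5.09, 5.63 and 5.94 in F KSR4. The libraries did not overlap, with a difference of -2.12 (SE 0.35, limma adjusted p = 0.20). In the groups outside the female iPSCs Retsat was read mainly from the paternal allele, with a maternal share of 17.1%, whereas F KSR2 had 26 and 0, 23 and 0, and 26 and 10 maternal and paternal reads. Tgoln1 stood at 6.24, 5.94 and 6.73 in F KSR2 and 4.88, 4.72 and 4.55 in F KSR4, again without overlap, and the difference was 1.58 (SE 0.31, adjusted p = 0.33). Its maternal share elsewhere was 50.4%. Tcf7l1 stood at 7.63, 6.80 and 6.53 in F KSR2 and at 4.94, 5.04 and 6.85 in F KSR4, where replicate 3 lay within the range of F KSR2. When the spread was taken from all 12 KSR-iPSC libraries, Retsat (adjusted p = 0.0072) and Tgoln1 (0.019) passed the threshold as well. A predicted gene overlaps Tgoln1 on the other strand. The origin of the allelic pattern was not tested.

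**Figure D1:**
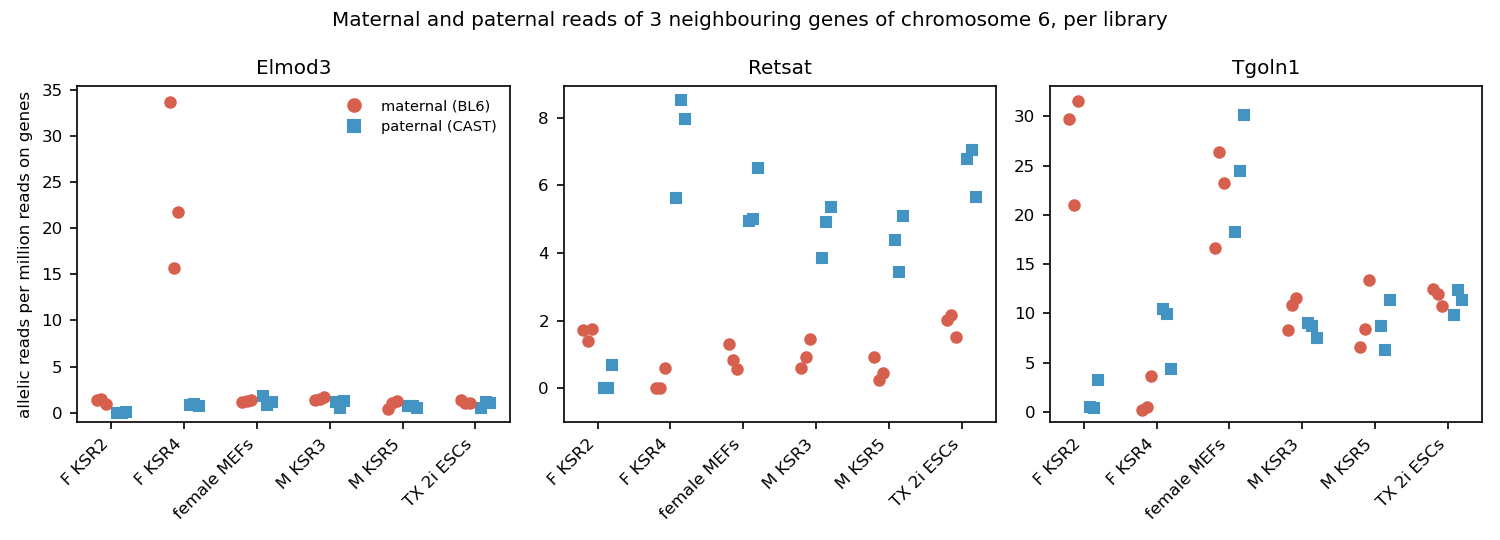
Maternal and paternal reads of Elmod3, Retsat and Tgoln1, in RPM on genes (vertical axis), for each library of the 6 groups, with the 3 replicates of a group from left to right. In F KSR4 the maternal reads of Elmod3 lie at 15.7 to 33.7, above all other libraries, and those of Retsat and Tgoln1 lie low.

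Larger stretches of allelic imbalance separated the lines. With genes of at least 20 allelic reads in each of the 6 libraries placed in blocks of 25, a block was called imbalanced in a line where its median maternal share was below 40% or above 60% in all 3 libraries, and at least 2 such blocks in a row made a segment. F KSR2 had 3 segments and F KSR4 had 0. On chromosome 6 all 14 blocks of F KSR2, with 361 genes, were maternal, with median shares of 98.9, 99.1 and 93.1% in replicates 1 to 3. From allelic counts of its RNA-seq, the paper describes maternal uniparental disomy of this chromosome in F KSR2. At the end of chromosome 4 the last 4 of 21 blocks (chr4:137468769-156247616, 109 genes) were paternal, with median maternal shares of 1.89, 1.60 and 6.57%. At the end of chromosome 9 the last 2 of 18 blocks (chr9:114375134-123851899, 42 genes) leaned to the maternal side, with 70.1, 69.0 and 67.0%. F KSR2 replicate 3 was the least extreme of its group in each of them.

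The same places were near balance in F KSR4, where the median shares were 51.5 to 53.1% on chromosome 6, 52.2 to 53.8% at the end of chromosome 4 and 52.4 to 54.1% at the end of chromosome 9. In MEFs, the cells both lines were made from, they were 50.7 to 55.1% at the 7 places examined. When 1 library beyond the limits was enough, chromosome 12 of F KSR2 and chromosome 8 of F KSR4 were added, which makes 5 segments. Over all of chromosome 8 the median share was 67.3, 67.4 and 58.0% in F KSR4 and 52.0 to 52.2% in F KSR2. F KSR4 replicate 3 thus lay between the lines. The male line M KSR3 had 66.5 to 66.6% there. Over chromosome 12 the share was 56.8, 57.8 and 52.1% in F KSR2, so that replicate 3 differed from its group, and 50.7 to 52.3% in F KSR4. A ratio of 2 maternal reads to 1 paternal read is a share of 66.7%. Over the autosomes other than 4, 6, 8 and 12 and over the X chromosome, whole-chromosome median shares lay between 47.8 and 53.7% in both lines. DNA copy number was not measured in these libraries. The paper counted chromosomes in metaphase spreads of both lines and reports a normal karyotype, judged by the count in most metaphases.

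**Figure D2:**
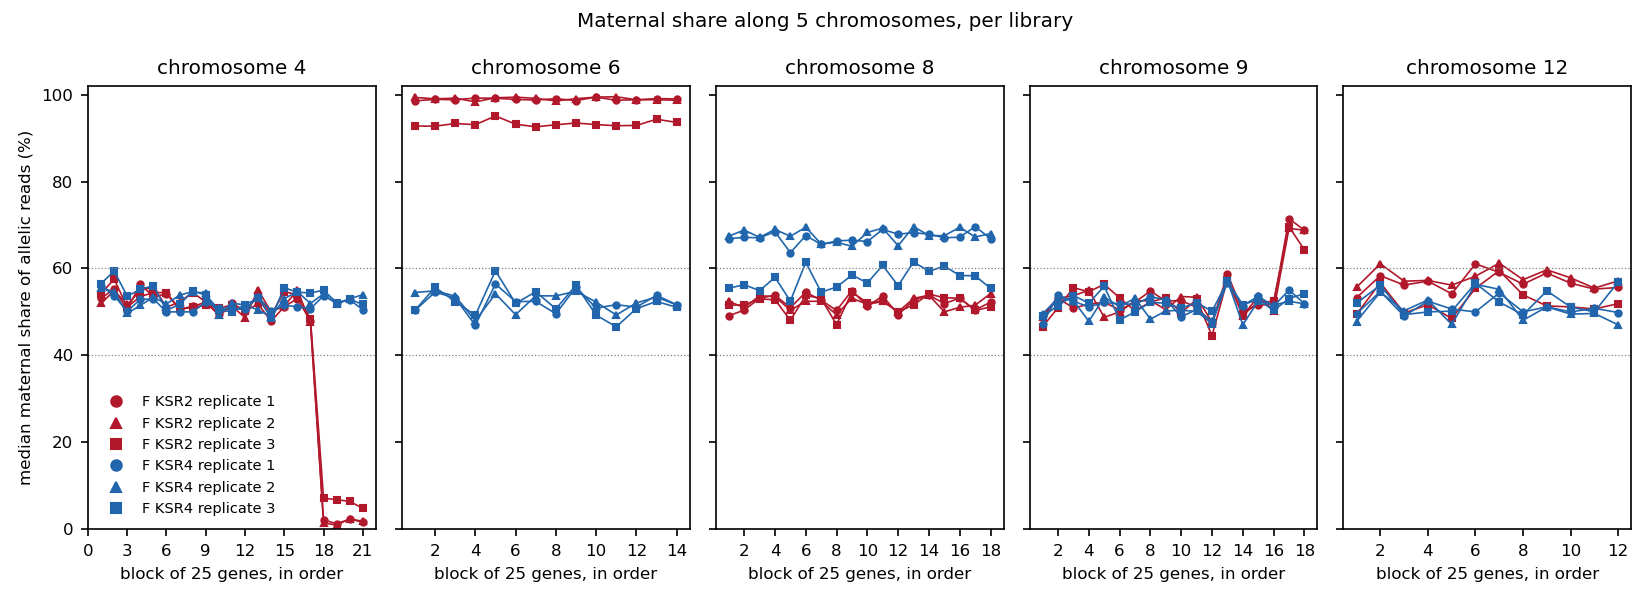
Median maternal share of allelic reads in percent (vertical axis) along chromosomes 4, 6, 8, 9 and 12, in blocks of 25 genes in order of position (horizontal axis), for each of the 6 libraries, with dotted lines at 40 and 60%. F KSR2 lies near 0 over the last 4 blocks of chromosome 4, above 90 over chromosome 6 and near 70 over the last 2 blocks of chromosome 9, and F KSR4 replicates 1 and 2 lie near 67 over chromosome 8.

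The block before the chromosome 4 segment, which ends with Cdc42, still had median shares of 47.6 to 48.4% in F KSR2, although genes near its end were read from the paternal allele. E2f2, a cell cycle transcription factor (chr4:136172394-136196057), had 2 and 120, 2 and 97, and 1 and 51 maternal and paternal reads in F KSR2, and Cdc42 (chr4:137319696-137357720), had 25 and 542, 18 and 701, and 47 and 622. In F KSR4, Cdc42 had 789 and 590, 620 and 506, and 687 and 532. E2f2 leaned to the paternal allele in F KSR4 as well, with 36 and 71, 9 and 47, and 30 and 48. Its summed reads were 144 and 244 in M KSR3, 118 and 224 in M KSR5 and 10 and 9 in MEFs. Luzp1, Kdm1a, Tcea3, Ephb2 and Zbtb40, which lie between them, had maternal shares of at most 4.67% in each F KSR2 library.

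Gene levels moved with the alleles at these places. For each library the median over a place's genes was taken relative to the mean of the 6 libraries and to all autosomal genes. At the end of chromosome 4 it was -0.36, -0.49 and -0.52 in F KSR2 and 0.41, 0.59 and 0.44 in F KSR4, a difference of -0.93 over 202 genes, or 0.52-fold. At the end of chromosome 9 it was 0.29, 0.26 and 0.35 against -0.37, -0.28 and -0.36, a difference of 0.64 over 73 genes, or 1.55-fold. On chromosome 8 it was -0.19, -0.18 and -0.18 against 0.28, 0.25 and 0.00, a difference of -0.36 or 0.78-fold, and again F KSR4 replicate 3 was the library nearest to F KSR2. On chromosome 12 it was 0.18, 0.26 and -0.05 against -0.10, -0.07 and -0.18, a difference of 0.24 or 1.18-fold, with F KSR2 replicate 3 nearest to F KSR4.

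Chromosome 6 behaved differently: the loss of paternal reads went with almost no change of the chromosome's level. Its medians were 0.00, 0.06 and 0.13 in F KSR2 and -0.05, -0.06 and -0.05 in F KSR4, a difference of 0.12 or 1.09-fold. Without F KSR2 replicate 3 it was 0.06. Of 23 chromosomes or segments, 8 had medians that did not overlap between the lines, 5 higher in F KSR2 and 3 higher in F KSR4. An exact two-sided permutation test of 3 against 3 libraries gives a p of 0.1 at the least, which was reached by these 8, and the adjusted p was 0.288, so no place passed a threshold. The other 16 autosomes or their remainders differed by -0.03 to 0.10. Leaving out F KSR4 replicate 2 changed the differences named here to -0.88, 0.67, -0.32, 0.27 and 0.11, in the order given.

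**Figure D3:**
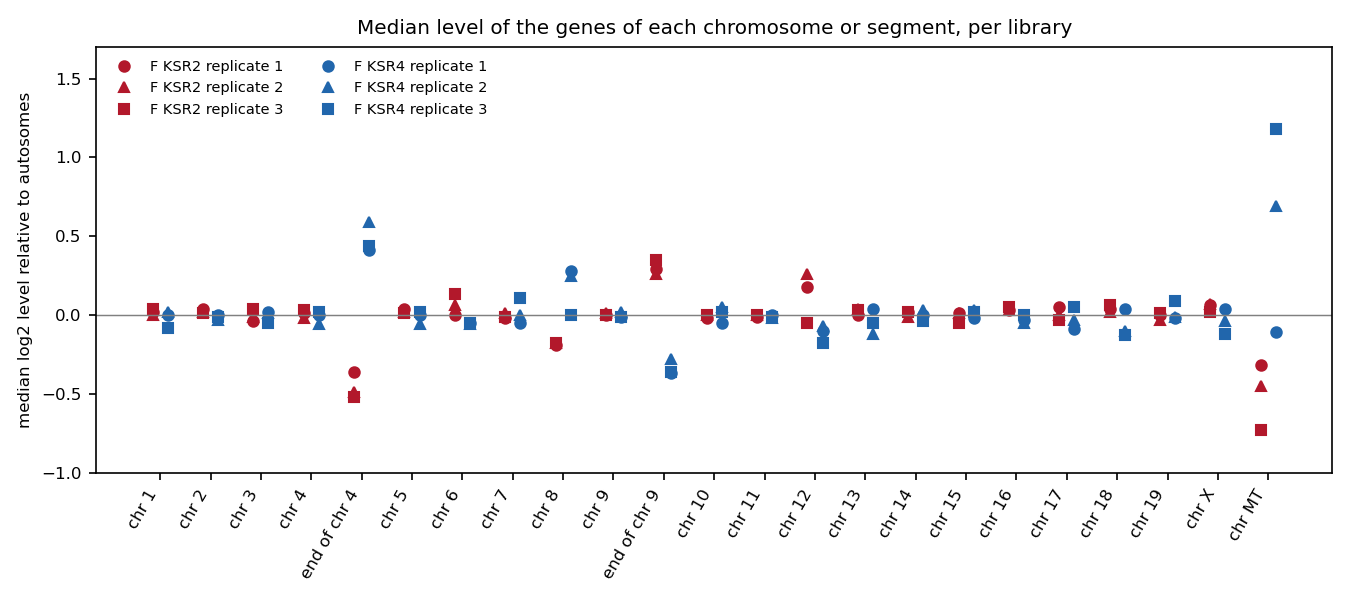
Median log2 level of the genes of each chromosome or segment relative to all autosomal genes (vertical axis), 1 point per library. The end of chromosome 4 and chromosome 8 lie higher in F KSR4, the end of chromosome 9 and chromosome 12 higher in F KSR2, and the other autosomes and the X lie within 0.13 of 0 in every library.

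Read by allele, the difference in level sat on the maternal allele at 4 of the 5 places. The median paternal level in F KSR2 was 1.06-fold that of F KSR4 at the end of chromosome 4, 1.02-fold on chromosome 8, 0.982-fold at the end of chromosome 9 and 1.04-fold on chromosome 12. The maternal level was 0.636-fold on chromosome 8, 1.91-fold at the end of chromosome 9 and 1.26-fold on chromosome 12, and at the end of chromosome 4 few maternal reads were left. On chromosome 6 the maternal level was 2.03-fold that of F KSR4 where few paternal reads were left. These folds are medians over 42 to 446 genes per place and come from the same libraries as the shares, so they are not separate evidence.

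Since chromosome 6 of F KSR2 was read from maternal copies, a gene's level there could differ by how strongly its maternal allele is used. Over 480 genes of chromosome 6, the log2 difference between the lines went with the maternal share in the other pluripotent groups (Pearson 0.34, Spearman 0.26), as a description across genes that share libraries. Over 9728 genes of the other autosomes the correlations were -0.01 and -0.02. The median log2 difference on chromosome 6 was -0.09 for 45 genes with a share of at most 40%, 0.24 for 364 genes between 40 and 60%, and 0.49 for 71 genes above 60%. On the other autosomes these medians were 0.16, 0.17 and 0.13. Retsat, whose reads elsewhere are mainly paternal, and Clec4a1 are among the chromosome 6 genes that stood lower in F KSR2. Clec4a1, a C-type lectin gene chosen after its values were seen, had 0 allelic reads in F KSR2 replicates 1 and 2, and 0 maternal and 24, 12 and 42 paternal reads in F KSR4.

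Counted gene by gene, the same places stood out. The 3 F KSR2 libraries all lay above the 3 F KSR4 libraries for 1078 genes (8.32% of those tested) and all below for 465 genes (3.59%). Of the 1543 genes, 69.9% were higher in F KSR2. When each library was centred on its autosomal genes the counts were 657 (5.07%) and 746 (5.76%), and 46.8% were higher in F KSR2, so the direction of the split depends on the scaling. Without F KSR4 replicate 2, which leaves fewer values that can overlap, the counts were 1868 (14.4%) and 1385 (10.7%) as deposited and 1623 (12.5%) and 1633 (12.6%) after centring. At the end of chromosome 4, F KSR4 was higher for 47.0% of 202 genes and F KSR2 for 0.990%. At the end of chromosome 9, F KSR2 was higher for 43.8% of 73 genes and F KSR4 for 0. On chromosome 8, F KSR4 was higher for 11.9% of 700 genes and F KSR2 for 0.571%, and on chromosome 12, F KSR2 was higher for 20.6% of 452 genes and F KSR4 for 1.33%. These 4 places kept their direction after centring. Without F KSR4 replicate 2, F KSR4 was higher for 60.9% of the genes at the end of chromosome 4 and for 27.3% on chromosome 8, and F KSR2 for 53.4% at the end of chromosome 9. On chromosome 6 the percentages were 14.5 and 3.16 of 601 genes, or 9.82 and 4.49 after centring. The other autosomes ranged from 5.49 to 10.2% and from 0.949 to 3.22%, and centred they were even, with 4.50% of 10414 genes higher in F KSR2 and 4.38% higher in F KSR4.

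Examples from the 2 chromosome ends, chosen after their values were seen, show how the genes there behaved. Cdc42 lies just before the chromosome 4 segment as drawn here and is not counted within it. Cdc42 stood at 7.18, 7.40 and 7.46 in F KSR2 and 8.43, 8.15 and 8.47 in F KSR4, without overlap (difference -1.0, SE 0.25, limma adjusted p = 0.65). Acot7, which encodes an acyl-CoA thioesterase (chr4:152178134-152271855), stood at 4.22, 4.65 and 4.40 against 5.84, 6.04 and 6.28 (difference -1.63, SE 0.30, adjusted p = 0.30). Alpl, the alkaline phosphatase that is widely used to stain pluripotent colonies, stood at 6.79, 6.69 and 7.04 against 7.09, 8.06 and 8.09. F KSR4 replicate 1 was close to F KSR2 for Alpl and far from it for Acot7.

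On chromosome 9, Ctnnb1, which encodes beta-catenin (chr9:120929216-120960507), stood at 9.94, 9.85 and 10.02 in F KSR2 and 9.26, 9.01 and 9.02 in F KSR4 (difference 0.84, SE 0.24, adjusted p = 0.69). Its maternal and paternal reads were 1612 and 936, 1643 and 969, and 1683 and 900 in F KSR2, against 788 and 860, 607 and 644, and 832 and 925 in F KSR4. Cnot10, a subunit of the CCR4-NOT deadenylase complex, stood at 7.55, 7.54 and 7.51 against 6.37, 6.06 and 6.66 (difference 1.17, SE 0.27, adjusted p = 0.56). For both genes the lines did not overlap, and neither passed the threshold in the 6 libraries.

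With the spread taken from more libraries, more genes passed, and those lower in F KSR2 came largely from these places. The fit of the 12 KSR-iPSC libraries called 27 genes, 6 higher and 21 lower in F KSR2, of which 15 of the lower genes lay at the end of chromosome 4. The fit of all 18 libraries called 161 genes, 83 higher and 78 lower. Of the lower genes 46 lay at the end of chromosome 4 and 12 on chromosome 8, and of the higher genes 9 lay at the end of chromosome 9, 12 on chromosome 6 and 6 on chromosome 12. Among 10414 genes of the other autosomes this fit called 51 higher and 13 lower, so most of its higher genes lay outside these places. Both fits assume that F KSR4 varies like the other groups, and its libraries varied more: the median SD within the line was 0.55 on the log2 scale against 0.29 in F KSR2.

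Allele use also differed at single genes. Of 7896 genes with at least 20 allelic reads in each library, 459 (5.81%) had maternal shares that did not overlap between the lines and differed by at least 30 points. Chromosome 6 held 340 of its 361 genes (94.2%) and the end of chromosome 4 held 104 of 109 (95.4%). Elsewhere, with the end of chromosome 9 counted in, there were 15 of 7426 (0.202%). Of these, 6 lie next to the chromosome 4 segment: Luzp1, Kdm1a, Cdc42, Ephb2, Zbtb40 and Tcea3. The remaining 9 were named for this difference, which is a description without a test.

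Of these, 4 lie on chromosome 1 and were read almost only from the maternal allele in F KSR2. Camsap2, which encodes a protein that binds microtubule minus ends (chr1:136268123-136346104), had maternal shares of 96.9, 98.9 and 96.1% in F KSR2 and 50.5, 53.2 and 47.3% in F KSR4. Its neighbours Ddx59, a putative RNA helicase, with 93.5, 88.6 and 97.5%, and Kif14, a mitotic kinesin, with 97.7, 95.2 and 99.4% in F KSR2, followed it. In F KSR4 the shares were 59.7, 33.3 and 42.3% for Ddx59 and 47.6, 59.5 and 47.1% for Kif14. Kif21b, before Camsap2, had 50 and 0, 60 and 4, and 22 and 6 maternal and paternal reads in F KSR2 and 25 and 12, 55 and 26, and 22 and 10 in F KSR4. Tmem9 and Zfp281, the neighbours beyond them, were near balance in both lines.

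None of these genes passed the threshold on its level. Camsap2 stood at 4.83, 4.55 and 4.91 in F KSR2 and 6.08, 5.78 and 4.64 in F KSR4, and F KSR4 replicate 3 lay within the F KSR2 range. Ddx59 stood at 2.81, 3.31 and 3.48 against 4.48, 3.52 and 4.99, without overlap (difference -1.13, SE 0.43, limma adjusted p = 0.82; -1.54, SE 0.36, adjusted p = 0.33 without F KSR4 replicate 2). Kif14 stood at 4.85, 4.65 and 4.54 against 5.33, 5.70 and 5.06, also without overlap (difference -0.68, SE 0.31, adjusted p = 0.82). Nuak2, a kinase gene nearer the start of the chromosome (chr1:132316126-132333488), had 30 and 0, 40 and 3, and 20 and 0 maternal and paternal reads in F KSR2.

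Cpne3, which encodes a calcium-dependent phospholipid-binding protein on chromosome 4 (chr4:19519254-19570108), had maternal shares of 97.0, 97.2 and 97.2% in F KSR2 and 39.1, 48.0 and 42.9% in F KSR4. The gene next to it, Wwp1, had 98 and 83, 164 and 87, and 138 and 63 maternal and paternal reads in F KSR2. Zranb1, a deubiquitinase gene of chromosome 7 (chr7:132931142-132986391), showed the reverse order of the lines, with 94.2, 96.2 and 81.0% in F KSR4 and 53.2, 47.3 and 43.0% in F KSR2. Its neighbour Ctbp2, a transcriptional corepressor, had 105 and 10, 9 and 6, and 27 and 11 maternal and paternal reads in F KSR4 and was near balance in F KSR2. In MEFs the pooled shares were 48.6% for Cpne3, 51.7% for Zranb1 and 50.2% for Camsap2. The others were Kifc3, on chromosome 8, Cmc1, which lies within the chromosome 9 segment of F KSR2, and a predicted gene of chromosome 18. Their pooled shares in the other groups ranged from 25.3 to 63.6%.

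**Figure D4:**
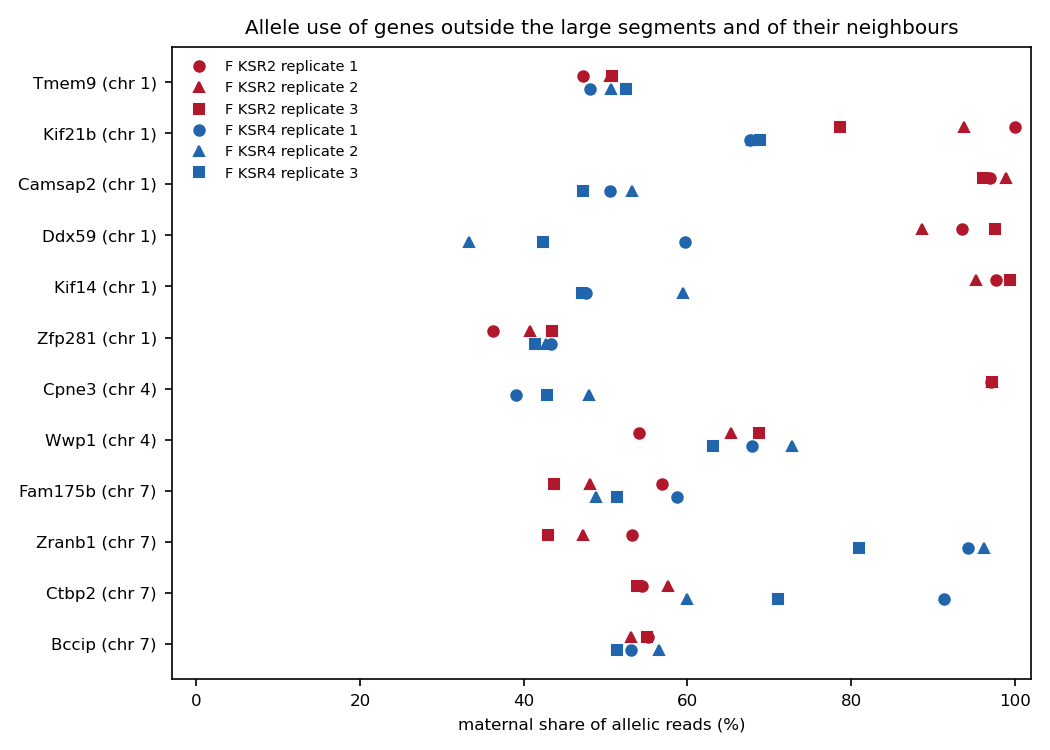
Maternal share of allelic reads in percent (horizontal axis) for genes outside the large segments and for their neighbours (vertical axis, with chromosome), 1 point per library. Camsap2, Ddx59, Kif14 and Cpne3 lie at 88.6% or above in F KSR2 and at 33.3 to 59.7% in F KSR4, and Zranb1 lies at 81.0% or above in F KSR4.

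The X chromosome held a somewhat larger share of the reads in F KSR2. It was 4.77, 4.84 and 4.81% of the reads on genes in F KSR2 and 4.62, 4.28 and 4.39% in F KSR4, without overlap. The difference was 0.376 points (exact two-sided permutation p = 0.1, the smallest that 3 against 3 allows) and 0.302 points without F KSR4 replicate 2. The X median relative to the autosomes overlapped between the lines (difference 0.09). Xist, the RNA that silences an X chromosome, stood at 4.29, 5.03 and 3.42 in F KSR2 and 6.23, 5.86 and 5.23 in F KSR4, without overlap (difference -1.53, SE 0.43, limma adjusted p = 0.67). It was read from both alleles, with 58 and 30, 103 and 42, and 33 and 8 maternal and paternal reads in F KSR2 and 187 and 104, 185 and 90, and 88 and 67 in F KSR4. Ddx3x, an X-linked RNA helicase, stood at 10.32, 10.38 and 10.32 against 9.98, 8.97 and 9.12. Of 12 genes tested from the list of X inactivation and dosage-sensitive genes, 0 passed the threshold.

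Mitochondrial transcripts took 1.30, 1.27 and 1.10% of the library total in F KSR2 and 1.64, 2.37 and 3.01% in F KSR4. All 11 mitochondrially encoded genes tested had a lower mean in F KSR2, and after centring 5 of them did not overlap between the lines. The cytochrome oxidase subunit gene mt-Co3 stood at 0.48, 0.99 and 0.21 against 3.66, 2.44 and 3.55 (difference -2.65, SE 0.53, limma adjusted p = 0.36), and mt-Co2 at 1.23, 1.80 and 0.96 against 1.63, 3.41 and 3.29. Both genes had few reads, 19 to 37 and 98 to 229 for mt-Co3 and 32 to 65 and 56 to 192 for mt-Co2. They hold little of the mitochondrial total, which was 11000 to 30100 RPM in these libraries. Within the male line M KSR5 alone, mt-Co3 ranged from 0.78 to 4.18. F KSR4 replicate 1 was the library nearest to F KSR2 in its mitochondrial share.

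Outside the chromosomes, 24 gene lists were described by their members' counts and medians, beside a median log2 difference over all genes of 0.15, or 0.05 without F KSR4 replicate 2. None of their members passed the threshold in either fit. Below, counts of genes that did not overlap between the lines are those after centring, of which all genes tested gave 5.07% higher in F KSR2 and 5.76% higher in F KSR4. Where F KSR4 replicate 2 was left out, these shares over all genes were 12.5% and 12.6%. The mean was higher in F KSR2 for 63.4% of all genes tested.

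No pluripotency gene passed the threshold. Of 12 core factors 11 had a higher mean in F KSR2 and 0 were apart, and the median difference was 0.42, or 0.15 without F KSR4 replicate 2. Pou5f1 stood at 10.07, 10.00 and 10.15 in F KSR2 and 9.57, 9.84 and 9.87 in F KSR4, and Sox2 at 9.07, 9.03 and 9.22 against 9.13, 8.98 and 8.60. Nanog, which lies on chromosome 6, stood at 8.97, 8.25 and 9.75 against 8.72, 8.86 and 9.00, although its maternal and paternal reads were 2227 and 16, 1412 and 6, and 3412 and 179 in F KSR2 and 1005 and 863, 1095 and 926, and 926 and 715 in F KSR4. The lines overlapped for Nanog and Sox2. Of 16 naive pluripotency genes 13 had a higher mean in F KSR2, with a median difference of 0.42, or 0.45 without F KSR4 replicate 2, beside 0.15 and 0.05 over all genes. Of these 1 was apart, the nuclear receptor gene Esrrb, at 9.44, 8.91 and 9.01 against 8.67, 8.57 and 8.63. The count was 4 (25.0%) without F KSR4 replicate 2, all higher in F KSR2. Nr0b1, another nuclear receptor gene, stood at 8.06, 6.64 and 7.69 against 6.38, 5.27 and 7.29 (difference 1.15), and Tet2 at 7.19, 6.45 and 6.66 against 6.56, 5.95 and 4.62, both with overlap.

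Of 15 formative and primed genes 1 was apart and higher in F KSR2, the zinc finger gene Zic5, and 2 were apart and higher in F KSR4, the transcription factor genes Sall2 and Grhl2. Without F KSR4 replicate 2 these counts were 1 and 5 (6.67 and 33.3%), and the list's median of 0.60 went to 0.00. For 15 ERK targets and feedback genes, which report on FGF signalling, it went from 0.54 to 0.18, and 0 were apart. Dusp6, an ERK phosphatase, stood at 6.85, 5.23 and 6.65 in F KSR2 and 6.26, 3.55 and 5.43 in F KSR4, with F KSR2 replicate 2 and F KSR4 replicate 2 low in their groups. For 11 beta-catenin targets the median was 0.13 with and -0.89 without F KSR4 replicate 2, although Ctnnb1 itself stood higher in F KSR2. With all libraries 0 were apart, and without that library 3 were, all higher in F KSR4 (27.3%).

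Markers of differentiated cells were uneven within the lines. Of 13 primitive endoderm, 5 mesoderm and 3 neural markers tested, 0 were apart. Of the primitive endoderm markers 12 had a higher mean in F KSR2, with a median difference of 0.60, or 0.84 without F KSR4 replicate 2. When that library was left out, 3 of them were apart (23.1%), all higher in F KSR2. All primitive endoderm markers on the list summed to 484, 252 and 563 RPM in F KSR2 and to 268, 356 and 174 RPM in F KSR4, with overlap. Lama1, a basement membrane laminin, stood at 7.01, 5.35 and 6.63 in F KSR2 and 5.16, 6.01 and 4.00 in F KSR4, with overlap. Of 7 trophectoderm markers 1 was apart, Ascl2, at 1.95, 1.66 and 2.96 against 2.92, 4.25 and 3.52, and only after centring. Krt7 ranged from -0.99 to 3.45 in F KSR2 and from 1.55 to 4.35 in F KSR4.

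Germline genes, many of which are silenced by promoter methylation in somatic cells, leaned to F KSR2. Of 22 tested 20 had a higher mean there, and 5 were apart after centring against 1 higher in F KSR4. Leaving out F KSR4 replicate 2 gave 9 against 1 (40.9 and 4.55%, beside 12.5 and 12.6% of all genes). The median difference was 0.80, or 0.89 without F KSR4 replicate 2, beside 0.15 and 0.05 over all genes. Mov10l1, a helicase of the piRNA pathway, stood at 3.61, 3.33 and 3.15 in F KSR2 and 1.40, 2.74 and -1.57 in F KSR4 (difference 2.50, SE 0.88, limma adjusted p = 0.82). Asz1, another piRNA pathway gene, stood at 1.01, 0.64 and 0.92 against -1.60, -0.01 and -3.89, the last being a single read. Tex11, an X-linked meiosis gene, stood at 3.29, 3.42 and 3.55 against 2.28, 2.05 and 0.81, and Rhox5, an X-linked homeobox gene, at 7.80, 7.36 and 8.06 against 6.26, 5.62 and 7.16. In all 4 genes F KSR2 was higher without overlap, and all Rhox5 allelic reads were paternal in both lines.

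The 13 DNA methylation enzymes and imprint protectors had a median of 0.60, or 0.43 without F KSR4 replicate 2, and 0 were apart. Tet1, which oxidises methylated cytosine, stood at 9.34, 8.68 and 7.87 in F KSR2 and 8.54, 7.23 and 6.80 in F KSR4. Zfp445, a zinc finger protein that protects imprints and lies at the end of chromosome 9, stood at 5.32, 3.75 and 4.52 against 4.65, 3.83 and 1.78. In both genes the lines overlapped.

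Imprinted genes are normally read from 1 parental allele. The paper reports that most of those it examined were read from both alleles in KSR-iPSCs. In F KSR2 it describes a switch of the expressed allele for Sgce, Peg10 and Mest. It attributes that switch to maternal uniparental disomy of chromosome 6. In level, the listed genes were split in their direction. Of 44 tested, 21 had a higher mean in F KSR2 and 23 in F KSR4, and 9 were apart and higher in F KSR4 after centring and 0 in F KSR2. They were Ndn, Mkrn3, Cdkn1c, Phlda2, Ascl2, Gnas, Sfmbt2, Gab1 and Xist. Xist, counted on this list, was read from both alleles in both lines and in MEFs, with 3917 maternal and 1572 paternal reads in MEFs. Without F KSR4 replicate 2, 13 were apart and higher in F KSR4 and 2 in F KSR2, or 29.5 and 4.55%. The shares over all genes were then 12.6 and 12.5%. As deposited, 6 were apart, and the list's median was -0.14, or -0.36 without F KSR4 replicate 2. Phlda2, a growth-restricting gene expressed from the maternal allele (chr7:143501545-143502541), stood at 2.56, 2.52 and 3.21 in F KSR2 and 5.20, 4.60 and 5.75 in F KSR4 (difference -2.42, SE 0.40, limma adjusted p = 0.20). Its maternal and paternal reads were 4 and 0, 9 and 0, and 20 and 5 in F KSR2 and 51 and 10, 44 and 0, and 50 and 1 in F KSR4, so both lines used mainly the maternal allele. With the spread of the 12 KSR-iPSC libraries it passed the threshold (adjusted p = 0.0073). Slc22a18, beside it, had few reads and ranged from -2.64 to 0.65 in F KSR2 and from -0.09 to 1.54 in F KSR4.

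Stress genes went in different directions. Of 17 p53 targets and cell cycle inhibitors, 15 had a higher mean in F KSR4, and 6 were apart after centring, all higher there: Cdkn1a, Cdkn2b, Mdm2, Ccng1, Phlda3 and Perp. Without F KSR4 replicate 2, 8 were apart (47.1%, beside 12.6% of all genes), again all higher in F KSR4. The median was -0.37, or -0.42 without F KSR4 replicate 2. Cdkn1a, the p21 inhibitor of cell division, stood at 5.58, 6.80 and 6.28 in F KSR2 and 7.13, 7.98 and 7.82 in F KSR4 (difference -1.42, SE 0.36, limma adjusted p = 0.65). Perp, a desmosome gene that responds to p53, stood at 4.28, 4.17 and 5.08 against 5.75, 5.34 and 5.56. Mdm2, which marks p53 for degradation, stood at 7.24, 7.67 and 7.74 against 8.49, 8.36 and 7.77.

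ATF4 targets, which respond to amino acid shortage, leaned to F KSR2, with 3 of 15 apart, Trib3, Chac1 and Slc7a11. Leaving out F KSR4 replicate 2 gave 8 (53.3%, beside 12.5% of all genes). Among these 8 are Ddit3 and Nupr1, which went the other way in F KSR4 replicate 2. They stood at 6.52 and 6.59 there, above the F KSR2 libraries at 3.31 to 4.14 and 3.20 to 3.95. The median was 0.50, or 0.73 without that library. Chac1, which degrades glutathione, stood at 4.31, 5.54 and 3.40 in F KSR2 and 1.21, 3.04 and 2.24 in F KSR4 (difference 2.25, SE 0.60, limma adjusted p = 0.65). The cystine transporter gene Slc7a11 stood at 1.80, 1.17 and 1.28 against -0.48, -4.33 and -1.57, where F KSR4 replicate 2 had no reads. The pseudokinase gene Trib3 stood at 5.72, 6.04 and 5.77 against 3.69, 4.91 and 4.21. None of the 3 overlapped between the lines.

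Of 22 glucose transport and glycolysis genes 2 were apart, and both lie on chromosome 6. The glucose transporter gene Slc2a3 (chr6:122727809-122801640) stood at 9.75, 9.73 and 9.92 in F KSR2 and 8.57, 8.91 and 8.42 in F KSR4 (difference 1.17, SE 0.25, limma adjusted p = 0.45). In F KSR4 its maternal and paternal reads were 908 and 262, 1104 and 338, and 657 and 246, and in F KSR2 2636 and 11, 2690 and 17, and 2766 and 65. Hexokinase 2 (Hk2) stood at 8.47, 8.23 and 7.41 against 7.34, 5.98 and 6.98 (difference 1.27, SE 0.39, adjusted p = 0.77). Of 10 interferon response genes 1 was apart and higher in F KSR2, Rsad2, and 2 were higher in F KSR4, Ifitm1 and B2m. The class I light chain gene B2m stood at 2.09, 2.48 and 3.18 against 3.66, 5.21 and 5.03 (difference -2.05, SE 0.48, adjusted p = 0.58).

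Of 11 Polycomb repressive complex 2 genes 2 were apart, the methyltransferase gene Ezh2, at 7.71, 7.74 and 7.67 in F KSR2 and 7.37, 7.25 and 7.07 in F KSR4, and its cofactor Phf19. Ezh2 also lies on chromosome 6. The count of Polycomb genes apart was 5 (45.5%) without F KSR4 replicate 2, all higher in F KSR2. Of 14 Nodal pathway genes 2 were apart and higher in F KSR2, Smad7 and Skil, both of which restrain TGF-beta family signalling. Smad7 stood at 7.21, 5.83 and 6.55 against 5.24, 5.32 and 5.33 (difference 1.23, SE 0.35, limma adjusted p = 0.69). Of 18 LIF and BMP pathway genes 2 were apart, the LIF receptor subunit genes Lifr and Il6st, both higher in F KSR2, with Il6st at 6.35, 5.95 and 6.23 against 5.64, 5.19 and 5.18. Among 21 cholesterol synthesis genes, 8 fibroblast markers and 2 two-cell-like genes 0 were apart.

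**Figure D5:**
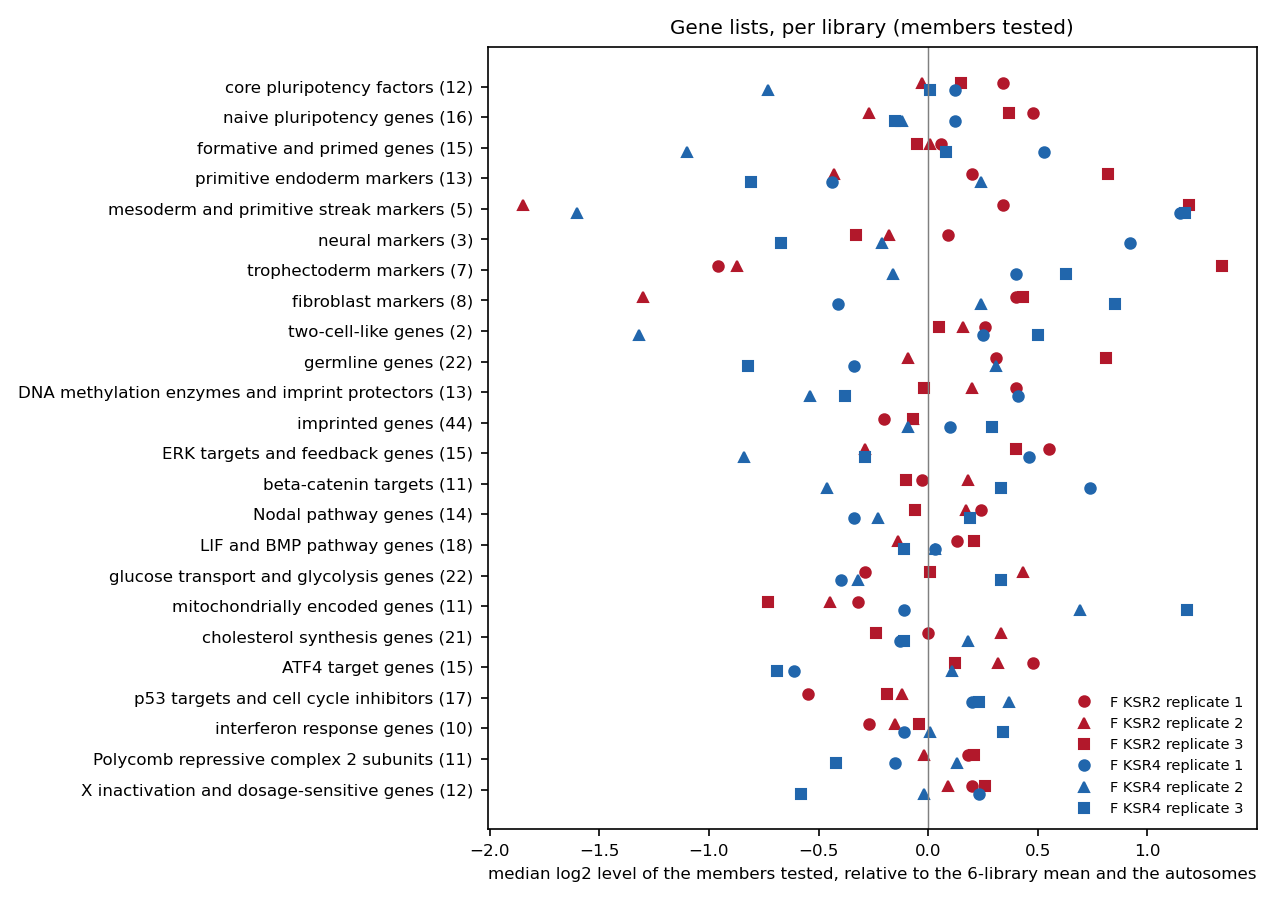
Median log2 level of the tested members of 24 gene lists, relative to the mean of the 6 libraries and to the autosomes (horizontal axis), with the number of members tested beside each list (vertical axis) and 1 point per library. The p53 targets lie higher in all F KSR4 libraries, the mitochondrially encoded genes are spread from -0.73 to 1.18, and most other lists overlap between the lines.

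The largest differences outside the lists and segments, chosen after their values were seen, were again few. P4ha3, a subunit of the collagen prolyl hydroxylase (chr7:100285520-100319699), stood at 4.79, 3.93 and 2.30 in F KSR2 and -1.86, -1.37 and -0.19 in F KSR4 (difference 4.81, SE 0.74, limma adjusted p = 0.20). Its maternal and paternal reads in F KSR2 were 0 and 129, 0 and 78, and 3 and 23, so it was read from the paternal allele there. The heat shock gene Hspa1a stood at -2.57, -0.76 and -1.23 in F KSR2 and 1.95, 2.73 and 0.36 in F KSR4, and its near-identical neighbour Hspa1b at 0.54, 1.27 and 0.42 against 3.27, 2.86 and 1.73. Reads of these 2 genes can be split between the copies, so they are uncertain one by one. For all 3 genes the lines did not overlap, and the adjusted p was above 0.05.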

How the data were processed

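RNA-seq values of F KSR2 and F KSR4, 3 libraries each, were compared, with 12 libraries of 4 other groups for reference. The authors trimmed the reads with Trim Galore 0.6.1, aligned them to GRCm38 with HISAT2 2.1.0, counted them on genes in SeqMonk, and deposited log2 RPM per gene for all reads and for those specific to the BL6 or CAST genome. Labels and methods give different read layouts. Reads were recovered by undoing the log2. At least 99.97% of a library's values lay within 0.05 read of a whole number, and a count of 0 allows up to 3 reads. Intervals were not computed, and depth covers counting error only.

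Lines were compared with limma 3.58.1 in R 4.3.3, which took the deposited log2 values as they are, a prior variance that follows the mean level, no covariates, and Benjamini-Hochberg adjustment over 12955 genes. Medians, shares and exact permutation tests used Python 3.11.15. The limma fit was checked on simulated data with the spread of the F KSR2 libraries. That spread is smaller than the one within F KSR4, so the check does not cover it. The authors' edgeR comparison of female and male lines was not used.

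Genes named by rule were those past the threshold, at most 2 of each list with the largest difference, and 8 that set F KSR4 replicate 2 apart. All others were chosen after their values were seen. The genes, lists and tests were chosen with earlier results of these data known.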

Additional observations from a re-analysis of the deposited data

How the results depend on the processing

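The count of 1 gene past the threshold was 0 to 1 when a library was left out, 8 with the replicate block, 0 with no filter on low values, 0 without the X chromosome and the segments (which leaves Elmod3 untested), 161 with all 18 libraries and 27 with the 12 KSR-iPSC libraries. Genes higher in every F KSR2 library numbered 1527 to 2849, and those lower 641 to 1385, when a library was left out, which leaves fewer values to overlap. After centring they numbered 657 and 746. Chromosomes or segments that did not overlap numbered 8 to 14 (14 without F KSR4 replicate 1). The chromosome 6 difference was 0.06 to 0.15. Segments numbered 4 with blocks of 15 genes and 5 when 1 library was enough. Centring and leave-one-out of these counts, and the 1-library rule, were chosen after seeing the data.

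Elmod3 kept its direction in all 17 alternatives, from -4.23 to -3.54, with adjusted p from 1.6e-06 to 0.27, and passed in 12. With no filter on low values it was 0.26. Of 88 named or list genes, 6 changed direction when a library was left out: Evx1 (-0.76 to 2.77, and -0.67 with array weights), Nes (-0.13 to 1.32), Col1a2 (-2.43 to 0.07), Lox (-2.79 to 0.48), Dppa2 (-0.25 to 1.29) and Dppa4 (-0.11 to 0.42). The cause was not tested.

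Whether replicate numbers pair the libraries is not stated and was not settled. The deviations of same-numbered libraries correlated at 0.079, 0.14 and 0.052, and those of differently numbered libraries at -0.24 to 0.15. F KSR2 replicate 3 correlated best with F KSR4 replicate 1 (0.15). With the replicate block 4 genes were higher and 4 lower in F KSR2, among them Elmod3 (adjusted p = 0.0002), Phlda2 (0.027), P4ha3 (0.026) and Retsat (0.044). The median SE was 0.39 on the log2 scale with 3 libraries of 1 clone per line, and the spread between libraries of a line was 25.3 to 114 times the counting noise, so small differences were not detectable with these libraries.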

Other observations

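F KSR4 replicate 2 differed from the other libraries in genes beyond those named by rule, and these were chosen after their values were seen. The stress response genes Ddit3 and Nupr1 stood at 6.52 and 6.59 there, against 1.91 and 2.57 for Ddit3 and 1.82 and 2.83 for Nupr1 in F KSR4 replicates 1 and 3. The angiogenic factor gene Vegfa stood at 7.71 against 3.36 and 4.33. L1td1, an RNA-binding protein gene of pluripotent cells, was at 5.40 against 9.31 and 8.66, and Dnmt3l, a cofactor of de novo DNA methylation, was at 5.03 against 8.79 and 8.49. In F KSR2 these 5 genes ranged within 3.31 to 4.14, 3.20 to 3.95, 5.17 to 6.44, 9.03 to 9.32 and 7.78 to 8.91 in the same order.

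The 3 libraries of F KSR4 also differed by chromosome. F KSR4 replicate 3 had a maternal share of 58.0% on chromosome 8, where replicates 1 and 2 had 67.3 and 67.4%, and 31.2% over Retsat, Tgoln1, Tcf7l1 and Kcmf1, where they had 1.54 and 2.25%. F KSR2 replicate 3 had 93.2% on chromosome 6, against 98.9 and 99.1% in its sister libraries, and 52.1% on chromosome 12, against 56.8 and 57.8%.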
